A study of Mus musculus with 12 samples.

Results

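Molecular chaperones bind unfolded or folding proteins and keep them from aggregating. In the cytosol, Hsp70 proteins such as Hspa8 (Hsc70) hold and release client proteins in a cycle that J-domain proteins such as Dnaja1 and Dnajb1 start and that nucleotide exchange factors such as Hspa4 reset, and Hsp90 proteins take over clients such as kinases and steroid receptors. The endoplasmic reticulum has its own Hsp70, Hspa5 (BiP), and disulfide isomerases such as Pdia4, and the mitochondrial matrix has the chaperonin Hspd1 (Hsp60) with its lid Hspe1 (Hsp10).

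Of 10 genes chosen for these roles by their platform symbols, 9 had a probe, with 1 probe each, among 12913 genes named on the array. Hsp90ab1, the second cytosolic Hsp90, was not analysed here. The cytosolic probes were those of Hspa8, Hspa4, Dnaja1, Dnajb1 and Hsp90aa1, the endoplasmic reticulum probes those of Hspa5 and Pdia4, and the mitochondrial probes those of Hspd1 and Hspe1.

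RNA came from microdissected mammary glands of mice aged 5 weeks that carry a B-actin-GFP reporter, in which the fluorescence made the glands visible for dissection. Terminal end buds, the growing tips of the ductal tree, were hybridised on 6 arrays and mature ducts on another 6, all in Cy5. The Cy3 channel of each array held distal stroma free of epithelium, and a value is thus epithelium over stroma. Strain, sex and the animals behind each array are not stated, and the p-values therefore cover the spread among arrays, which may be technical.

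The ratios are treated as log2. Their base is not stated, and natural logarithms would alter the size of every value while signs and p-values stayed as they are. A positive ratio means more RNA in epithelium than in stroma. Tests used limma over all 17589 probes with Benjamini-Hochberg adjusted p-values, and "rose", "fell" and "passed" refer to an adjusted p under 0.05. Stroma was only ever the other dye and is counted as 1 control sample. Whether it was a single pool is not stated, and its spread was not measured apart from that of the ratios. The labels name no swapped dyes, and any dye bias of a probe remains in its ratio. In bulk tissue, fewer cells of a type and less RNA per cell cannot be told apart.

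The labelled tissues were checked against marker genes. All 8 luminal probes were above stroma in both terminal end buds and ducts. Of 6 basal probes, 5 rose in terminal end buds and 6 in ducts. Of 6 fibroblast probes, 1 rose and 0 fell in terminal end buds, and 3 rose and 0 fell in ducts. Of 3 leukocyte probes, 1 fell in terminal end buds and 0 passed in ducts. Of 5 skeletal muscle probes, 1 fell in each structure. All 5 endothelial probes fell in both structures. All 7 white adipocyte probes fell in terminal end buds and 3 fell in ducts. All 5 brown adipocyte probes fell in both structures. Between the structures, 8 of 10 mitosis and 3 of 8 luminal probes were higher in terminal end buds. Lower there were 5 of 7 white adipocyte, 3 of 5 brown adipocyte and 5 of 5 endothelial probes. So were 2 of 6 basal, 1 of 6 fibroblast, 1 of 5 skeletal muscle and 0 of 3 leukocyte probes. Of 14 immediate early probes, which respond to stress and to growth signals, 10 rose against stroma in terminal end buds and 5 in ducts, and 2 were higher and 1 lower between the structures. The part of these cells and responses in the chaperone ratios was not tested.

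Promoter sequences of 7 of the 10 genes were found in a RefSeq table of build GRCm38.p6. They are shown because Hspd1 and Hspe1 share a stretch of promoter and because the elements named for heat shock and for stress of the endoplasmic reticulum can be read in them. The heat shock element is made of inverted GAA repeats, searched here as GAANNTTC and TTCNNGAA, each of which reads the same on both strands and may overlap the other. The endoplasmic reticulum stress element was searched as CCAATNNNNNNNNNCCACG on both strands. Each window held the 250 bases before a start. The 150 bases nearest to the start are printed, in lower case with the matches in capitals.

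Hspe1 (chr1:55087998-55088147, plus strand): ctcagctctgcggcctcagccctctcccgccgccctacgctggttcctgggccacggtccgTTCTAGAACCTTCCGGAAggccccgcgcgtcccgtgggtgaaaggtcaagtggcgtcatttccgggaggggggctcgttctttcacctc
Hspa5 (chr2:34771940-34772089, plus strand): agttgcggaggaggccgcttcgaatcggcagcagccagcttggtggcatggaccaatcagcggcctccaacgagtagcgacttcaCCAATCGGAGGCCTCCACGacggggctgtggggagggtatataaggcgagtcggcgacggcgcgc
Dnaja1 (chr4:40722318-40722467, plus strand): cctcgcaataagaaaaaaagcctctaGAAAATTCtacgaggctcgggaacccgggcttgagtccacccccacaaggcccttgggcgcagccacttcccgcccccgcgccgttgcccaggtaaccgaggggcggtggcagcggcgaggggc

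Hspd1 and Hspe1 lie on opposite strands of chromosome 1. Hspe1 starts 216 bases from one annotated start of Hspd1, from which the genes run apart, and 95 bases downstream of the other, in the direction of Hspd1. In the Hspe1 window 3 heat shock pairs overlapped into 1 run from 89 to 72 bases before the start. The same run stood from 144 to 127 bases before the Hspd1 start from which the genes run apart. That run, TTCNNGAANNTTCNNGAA, was found ahead of 4 of 32851 starts in the table (0.0122%). The starts of Hspe1 and Hspd1 are both among these 4, and they read 1 site from opposite strands. Either heat shock pair alone was found ahead of 12.8% of starts. Dnaja1 held 1 pair, from 124 to 117 bases before the first of its annotated starts. The Hspa5 window held the stress element from 65 to 47 bases before the start, as did 0.113% of all starts. The windows of Hspa4, Dnajb1 and Pdia4 held none of these letters. A match is a description of the letters only.

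Between the structures the chaperones went in both directions. Of the 9 probes 5 passed, against 18.7% of all probes, with 2 higher in terminal end buds (8.32% of all probes) and 3 lower (10.4%). Hspa8 and Pdia4 were higher, and Dnaja1, Hsp90aa1 and Hspd1 were lower. The median of the 9 differences was -0.20, and that of all probes was 0.00033. Of the 5 cytosolic probes 1 was higher and 2 were lower, 1 of 2 endoplasmic reticulum probes was higher, and 1 of 2 mitochondrial probes was lower.

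**Figure D1:**
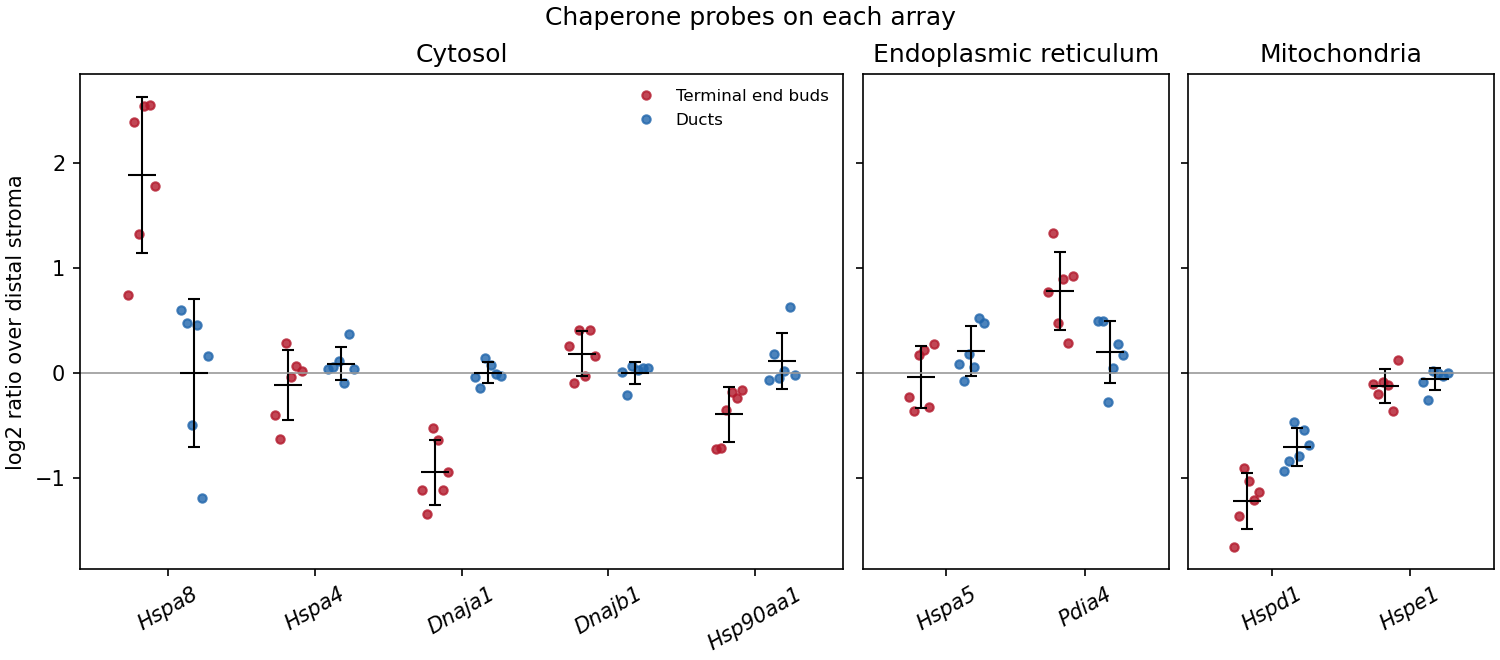
Log2 ratio over distal stroma (vertical axis) of the 9 chaperone probes on each of the 12 arrays, by compartment. Points are arrays (red for 6 terminal end bud arrays, blue for 6 duct arrays), and bars show the mean ± SD. Hspa8, Dnaja1 and Hsp90aa1 have groups that do not overlap. Of all probes, 4.42% separate with terminal end buds higher, as Hspa8 does, and 5.79% with terminal end buds lower.

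Hspa8, the constitutive Hsp70 that serves folding and membrane traffic in all cells, had the largest difference of the 9. Its ratio over stroma had a lowest value of 0.75, a median of 2.09 and a highest of 2.55 on the 6 terminal end bud arrays, against a lowest value of -1.18, a median of 0.31 and a highest of 0.61 on the 6 duct arrays. Every terminal end bud array lay above every duct array. The difference was 1.89 on the log2 scale (SE 0.36, adjusted p = 0.00206), or 3.70-fold, and it ranked 8th from the highest among the 17589 probes. The groups did not overlap, which in this direction held for 4.42% of all probes, and the exact two-sided permutation p was 0.00216, the smallest that 6 against 6 arrays allow. Against stroma, Hspa8 rose in terminal end buds (1.89, SE 0.25, adjusted p = 2.42e-05), with all 6 arrays above 0 as for 21.8% of all probes, while ducts averaged 0.0073 (SE 0.25, adjusted p = 0.989).

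The Hspa8 probe also spread the most between arrays of a group, with an SD of 0.74 in terminal end buds and 0.70 in ducts. Among duct arrays, replicates 3 and 5 lay below stroma, at -0.49 and -1.18, and the other 4 lay between 0.16 and 0.61. Without duct replicate 5 the difference was 1.65 (adjusted p = 0.00374), the smallest value when 1 array was left out. On slides numbered up to 193, a split of 2 arrays per group that was added once the values had been seen, it was 1.03 (adjusted p = 0.299), and on slides from 196 on it was 2.32 (adjusted p = 0.00456). Many processed copies of Hspa8 lie in the genome, and the specificity of the probe was not tested.

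Dnaja1, a farnesylated J-domain protein that delivers clients to Hspa8, went the opposite way. The 6 terminal end bud arrays had a lowest ratio over stroma of -1.34, a median of -1.02 and a highest of -0.52. The 6 duct arrays had a lowest ratio of -0.14, a median of -0.014 and a highest of 0.15. All terminal end bud arrays were below stroma and below every duct array, and the duct arrays lay on both sides of stroma. The difference was -0.95 (SE 0.13, adjusted p = 0.000163), and groups separated in this direction for 5.79% of all probes. On slides up to 193 alone it was -1.135 (adjusted p = 0.0162), and on slides from 196 on -0.85 (adjusted p = 0.00357). Terminal end buds fell against stroma by 0.94 on the log2 scale (SE 0.089, adjusted p = 8.53e-07), while ducts averaged 0.0052 (SE 0.089, adjusted p = 0.977).

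Hsp90aa1, the stress-inducible cytosolic Hsp90, was lower in terminal end buds as well. Its ratios over stroma ran from -0.72 through a median of -0.29 to -0.16 on terminal end bud arrays, and from -0.059 through a median of 0.0030 to 0.63 on duct arrays. The groups did not overlap, which in this direction held for 5.79% of all probes. The highest terminal end bud array, at -0.155, lay close to the lowest duct array, at -0.059. The difference was -0.51 (SE 0.14, adjusted p = 0.0199). Against stroma, terminal end buds fell by 0.39 (SE 0.10, adjusted p = 0.00518), and ducts did not pass (0.12, SE 0.10, adjusted p = 0.407). The terminal end bud values went with the slide number. Both arrays on slides up to 193 stood at -0.72 and -0.71, and the 4 later ones between -0.34 and -0.16. On the later slides alone the difference was -0.38 (adjusted p = 0.149) and the terminal end bud ratio -0.23 (adjusted p = 0.135). With early against later slides as a term in the fit of all arrays, the difference was -0.51 (adjusted p = 0.01). Without duct replicate 5, the highest duct array, the difference was -0.41 (adjusted p = 0.0349), the smallest in size when 1 array was left out.

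Dnajb1, the J-domain protein that works with Hsp70 to dissolve aggregates, lay close to stroma. Terminal end bud arrays ran from -0.095 through a median of 0.21 to 0.41, and duct arrays from -0.21 through a median of 0.041 to 0.072. The groups overlapped, and the difference of 0.18 (SE 0.10, adjusted p = 0.249) did not pass. The terminal end bud ratio of 0.19 (SE 0.071) passed with an adjusted p of 0.045, and that call was lost on leaving out any of 9 single arrays, namely terminal end bud replicates 1, 3, 5 and 6 and duct replicates 1, 3, 4, 5 and 6 (adjusted p up to 0.15). It was also lost after centring each array on its median (adjusted p = 0.0639), under quantile normalization (0.0658), at a common spread of the arrays (0.0625), with each group fitted alone (0.105) and on slides up to 193 alone (0.689). Ducts averaged 0.0023 (SE 0.071, adjusted p = 0.988).

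Hspa4, an Hsp110 protein that exchanges the nucleotide of Hsp70, did not pass in any of the 3 comparisons. Terminal end bud arrays ran from -0.62 through a median of -0.0080 to 0.29, and duct arrays from -0.090 through a median of 0.053 to 0.38, so the groups overlapped. The difference was -0.20 (SE 0.14, adjusted p = 0.374). Its terminal end bud arrays split by slide, with -0.39 and -0.62 on slides up to 193 and values from -0.038 to 0.29 on later ones. On the early slides alone the terminal end bud ratio was -0.51 (adjusted p = 0.0104), and on the later slides alone it was 0.086 (adjusted p = 0.488). The split, with 2 early arrays per group, was added once the values had been seen, and these p-values do not test it.

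**Figure D2:**
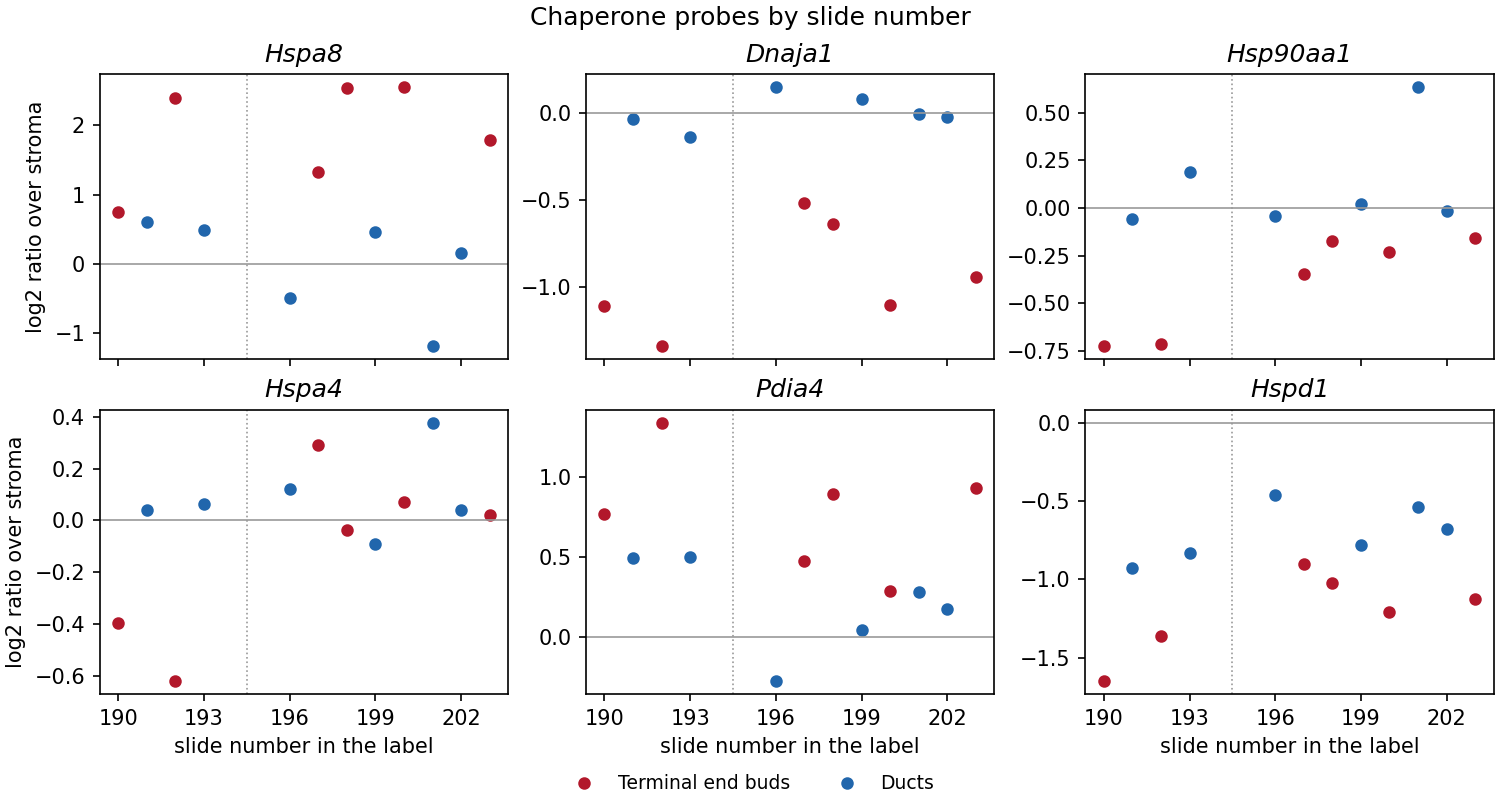
Log2 ratio over stroma (vertical axis) of 6 chaperone probes against the slide number in the array's label (horizontal axis), for 6 terminal end bud (red) and 6 duct (blue) arrays, with a dotted line between slides 193 and 196. The 2 early terminal end bud arrays are lowest for Hspa4, Dnaja1, Hsp90aa1 and Hspd1.

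The endoplasmic reticulum members differed from each other. Pdia4, a disulfide isomerase of the secretory pathway, ran from 0.29 through a median of 0.84 to 1.34 over stroma on terminal end bud arrays, and from -0.27 through a median of 0.23 to 0.502 on duct arrays. All 6 terminal end bud arrays and 5 of 6 duct arrays were above stroma, and the groups overlapped. Terminal end buds rose against stroma (0.78, SE 0.12, adjusted p = 9.92e-05) and ducts did not pass (0.205, SE 0.12, adjusted p = 0.244). The difference of 0.58 (SE 0.17, adjusted p = 0.0305) lost its call under quantile normalization (0.403, adjusted p = 0.18), at a common spread of the arrays (0.47, adjusted p = 0.121) and without any of 7 single arrays, namely terminal end bud replicates 1, 2, 4 and 6 and duct replicates 3, 4 and 6 (adjusted p up to 0.0697).

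Hspa5, the endoplasmic reticulum Hsp70 and a standard readout of the unfolded protein response, passed in none of the 3 comparisons. Terminal end bud arrays ran from -0.35 through a median of -0.023 to 0.28, and duct arrays from -0.071 through a median of 0.14 to 0.53. The groups overlapped, with 3 of 6 terminal end bud arrays and 5 of 6 duct arrays above stroma. The difference was -0.25 (SE 0.14, adjusted p = 0.279), with -0.036 (SE 0.10, adjusted p = 0.811) in terminal end buds and 0.21 (SE 0.10, adjusted p = 0.138) in ducts against stroma.

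Among the mitochondrial members, Hspd1 was below stroma on all 12 arrays. Its ratios ran from -1.65 through a median of -1.17 to -0.904 on terminal end bud arrays and from -0.93 through a median of -0.73 to -0.46 on duct arrays. The groups touched, with 1 terminal end bud array just above the lowest duct array. Hspd1 fell against stroma by 1.21 in terminal end buds (SE 0.088, adjusted p = 6.01e-08) and by 0.703 in ducts (SE 0.088, adjusted p = 4.03e-05). All arrays of the group were below 0 for 19.1% of probes in terminal end buds and 13.9% in ducts. In terminal end buds 6 of the 9 members passed against stroma, 3 higher and 3 lower, where 43.6% of all probes passed, 23.2% higher and 20.4% lower. In ducts Hspd1 was the 1 member of 9 that passed, where 28.2% of all probes passed, 16% higher and 12.2% lower. The difference between the structures was -0.51 (SE 0.12, adjusted p = 0.0101).

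The Hspd1 difference between structures depended on the scale of the arrays. It was -0.33 (adjusted p = 0.21) with arrays brought to a common spread and -0.079 (adjusted p = 0.782) under quantile normalization, while the falls against stroma kept their calls in both. On slides up to 193 alone it was -0.62 (adjusted p = 0.0674), and on slides from 196 on -0.45 (adjusted p = 0.0228). Markers of fat and endothelium were read beside Hspd1. The mean of the 7 white adipocyte probes lay between -1.76 and -1.32 on terminal end bud arrays and between -0.65 and -0.38 on duct arrays. The mean of the 5 brown adipocyte probes, from cells rich in mitochondria, lay between -2.82 and -2.23 on terminal end bud arrays and between -2.42 and -1.03 on duct arrays. The mean of the 5 endothelial probes lay between -1.68 and -1.21 on terminal end bud arrays and between -0.67 and -0.23 on duct arrays. The part of these cells in the Hspd1 ratios was not tested.

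Hspe1, which starts from the same stretch of chromosome 1 as Hspd1, lay near stroma. Terminal end bud arrays ran from -0.35 through a median of -0.11 to 0.13, and duct arrays from -0.26 through a median of -0.010 to 0.021. The groups overlapped and no comparison passed, with -0.12 (SE 0.061, adjusted p = 0.133) in terminal end buds, -0.054 (SE 0.061, adjusted p = 0.56) in ducts and -0.065 (SE 0.086, adjusted p = 0.677) between them. A probe for each gene was the only one, and the difference between the 2 genes' ratios was not tested.

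**Figure D3:**
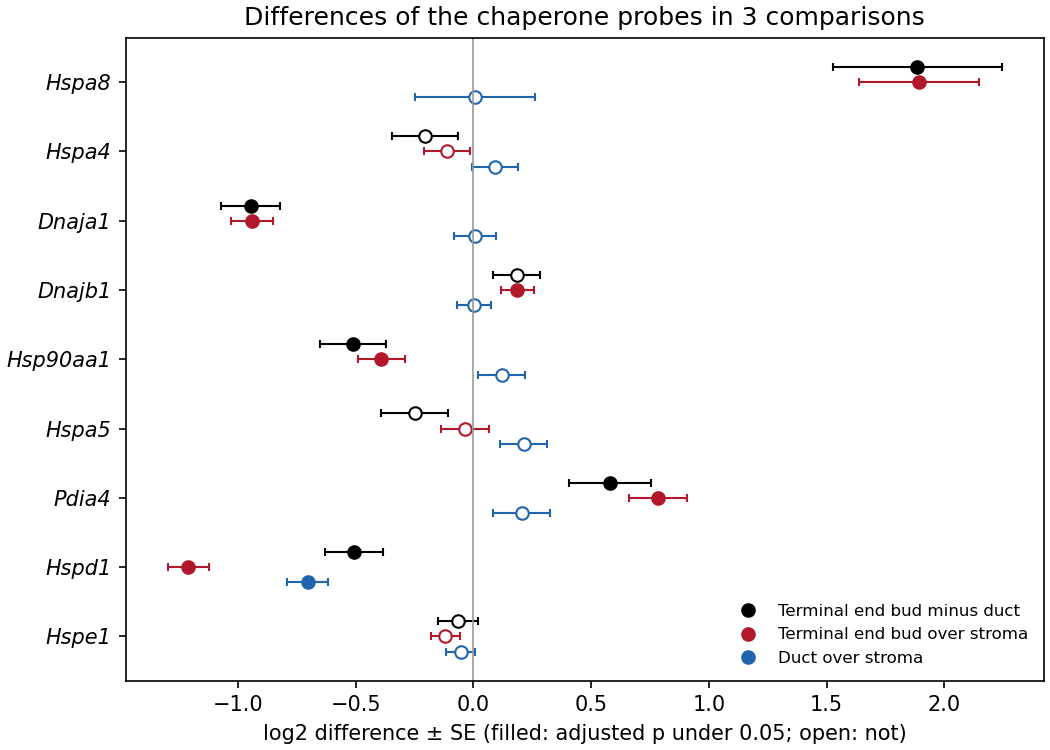
Log2 differences ± SE (horizontal axis) of the 9 chaperone probes in terminal end bud minus duct (black), terminal end bud over stroma (red) and duct over stroma (blue). Filled points have an adjusted p under 0.05; in ducts only Hspd1 is filled.

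Other genes of protein folding were read from 7 lists with 147 probes. The inducible Hsp70 gene Hspa1a held 17 of these probes, all made to 1 accession, and is described on its own. Of the remaining 130 probes, 12 had higher and 22 had lower ratios in terminal end buds than in ducts, with a median of -0.068. That is 9.23% and 16.9%, beside 8.32% and 10.4% of all probes. Against stroma, 33 rose and 45 fell in terminal end buds (25.4% and 34.6%), and 21 rose and 30 fell in ducts (16.2% and 23.1%). Of all probes, 23.2% rose and 20.4% fell in terminal end buds, and 16% rose and 12.2% fell in ducts.

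Averaged over its 17 probes, Hspa1a had a lowest ratio over stroma of 0.048, a median of 0.26 and a highest of 0.58 on terminal end bud arrays, against a lowest of 0.13, a median of 0.6 and a highest of 0.98 on duct arrays. All 12 arrays were above stroma and the groups overlapped. In ducts 13 of the 17 probes rose against stroma, and in terminal end buds 6 did. The difference of the averages was -0.26 (exact two-sided permutation p = 0.11), and 1 of the 17 probes passed between the structures, at -0.55 (adjusted p = 0.0309). The neighbouring inducible gene Hspa1b, named after its values were seen, had 1 probe at 1.501 (SE 0.14, adjusted p = 7.88e-07) in terminal end buds and 1.78 (SE 0.14, adjusted p = 7.46e-07) in ducts against stroma. The coding sequences of these genes are nearly identical, and whether their probes detect each other's RNA was not tested.

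In the cytosol, the co-chaperones of Hsp70 and Hsp90 went in both directions. Of 22 co-chaperone probes, 5 had higher and 4 had lower ratios in terminal end buds than in ducts, with a median of 0.17. That is 22.7% and 18.2%, beside 8.32% and 10.4% of all probes. Ptges3 (p23), which stabilises the closed Hsp90 dimer, averaged 1.01 ± 0.20 over stroma in terminal end buds and -0.049 ± 0.27 in ducts (SD, n = 6 each), a difference of 1.05 (adjusted p = 7.7e-05). Stip1 (Hop), the adaptor that links Hsp70 to Hsp90, averaged 0.83 ± 0.19 in terminal end buds and 0.103 ± 0.17 in ducts (adjusted p = 0.00029). Chordc1 and Bag1, a nucleotide exchange factor of Hsp70, were lower by 0.64 and 0.46 on the log2 scale (adjusted p = 0.00305 and 0.00613). Hspb2, a small heat shock protein known from muscle, was the 1 of 5 small heat shock probes that passed between the structures. It averaged 1.26 ± 0.49 in terminal end buds and -0.037 ± 0.17 in ducts (adjusted p = 0.000329). Hspb1 and Hspb6, chosen for the same list, had no probe by these symbols and were not read. Hspb8, named after its values were seen, fell against stroma in terminal end buds (-0.69, adjusted p = 1.57e-05) and in ducts (-0.31, adjusted p = 0.0161), and its difference of -0.38 between the structures lay at the threshold (adjusted p = 0.0501).

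Among other Hsp70, Hsp110 and J-domain probes, chosen as cytosolic, 2 of 26 had higher and 4 had lower ratios in terminal end buds than in ducts. These counts are 7.69% and 15.4%, beside 8.32% and 10.4% of all probes. Dnajb4, a relative of Dnajb1, differed by -0.76 (adjusted p = 0.000291) on 1 probe and by 0.0080 (adjusted p = 0.97) on its second. Dnajc7 differed by -0.64 (adjusted p = 0.0166), and Dnajc9, a J-domain protein that also binds histones, by 0.58 (adjusted p = 0.00452). Not every gene of this list is cytosolic. Dnajb12, named after its values were seen, lies in the endoplasmic reticulum membrane and was the other higher probe (0.465, adjusted p = 0.002). Dnajb14 and Hspa13 also belong to the endoplasmic reticulum, and none of their probes passed between the structures. Of 3 probes for heat shock factors and their regulators, 0 passed between the structures by limma, and 1 had an unadjusted p under 0.05. These were probes of Hsf2, Hsf4 and Hsbp1. Hsf1, chosen for the same list, had no probe by that symbol and was not read.

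Of 36 probes for endoplasmic reticulum folding, 4 had higher and 4 had lower ratios in terminal end buds than in ducts, with a median of 0.011. That is 11.1% each, beside 8.32% and 10.4% of all probes. Against stroma 12 passed above and 7 below in terminal end buds, where 23.2% and 20.4% of all probes did. In ducts 11 passed above and 2 below, where 16% and 12.2% of all probes did. Hyou1, an exchange factor of Hspa5, averaged 1.19 ± 0.28 over stroma in terminal end buds and 0.23 ± 0.093 in ducts (difference 0.95, adjusted p = 7.7e-05). Sil1, another exchange factor of Hspa5 named after its values were seen, differed by -0.13 (adjusted p = 0.44). It fell against stroma in terminal end buds (-0.24, adjusted p = 0.014). The J-domain partners of Hspa5 differed among themselves. Dnajb9 differed by -0.57 (adjusted p = 0.000666), Dnajc3 by -0.56 (adjusted p = 0.00802) and 1 of 2 Dnajc1 probes by -0.51 (adjusted p = 0.00725), with 0.16 (adjusted p = 0.496) on the second. The others on the list, named after their values were seen, were Sec63, at -0.41 (adjusted p = 0.0156) and -0.24 (adjusted p = 0.0972) on its 2 probes, Dnajc10, at -0.28 (adjusted p = 0.24), and Dnajb11, at 0.046 (adjusted p = 0.814).

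Of 18 probes for the unfolded protein response and disposal of misfolded proteins, 0 had higher and 3 had lower ratios in terminal end buds than in ducts by limma, and 1 was higher at an unadjusted p under 0.05. The limma counts are 0% and 16.7%, beside 8.32% and 10.4% of all probes. Ppp1r15a, which directs removal of the phosphate from the translation factor eIF2-alpha, averaged -0.87 ± 0.29 in terminal end buds and -0.0068 ± 0.23 in ducts over stroma (adjusted p = 0.000715). Xbp1, a transcription factor of the response, averaged -0.058 ± 0.35 in terminal end buds and 0.46 ± 0.20 in ducts (adjusted p = 0.0286). Eif2ak3 (PERK), the kinase that senses unfolded protein, was lower by 0.32 on the log2 scale (adjusted p = 0.0207).

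Most mitochondrial chaperones and proteases on the list lay below stroma, as Hspd1 did. Of 20 probes, 16 fell and 0 rose in terminal end buds (median -0.78), and 13 fell and 0 rose in ducts (median -0.44). Of all probes, 20.4% fell in terminal end buds and 12.2% in ducts. Between the structures, 7 of the 20 (35%) were lower and 0 higher in terminal end buds by limma, beside 10.4% and 8.32% of all probes. At an unadjusted p under 0.05, 0 were above stroma in either structure and 1 was higher in terminal end buds than in ducts. Dnajc15, a J-domain protein of the import motor, averaged -1.58 ± 0.17 in terminal end buds and -0.98 ± 0.20 in ducts. Clpx, the unfoldase of a matrix protease, averaged -1.29 ± 0.38 in terminal end buds and -0.398 ± 0.19 in ducts, a difference of -0.89 (adjusted p = 0.00125). Dnajc19 and Afg3l2, a subunit of an inner membrane protease, differed by -0.76 and -0.68 (adjusted p = 0.00188 and 0.0232). The 2 probes of Dnaja3, named after its values were seen, disagreed over stroma. They averaged -1.30 and 0.066 in terminal end buds, and -1.03 and 0.015 in ducts. The part in these ratios of the cells whose markers are given beside Hspd1 was not tested.

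**Figure D4:**
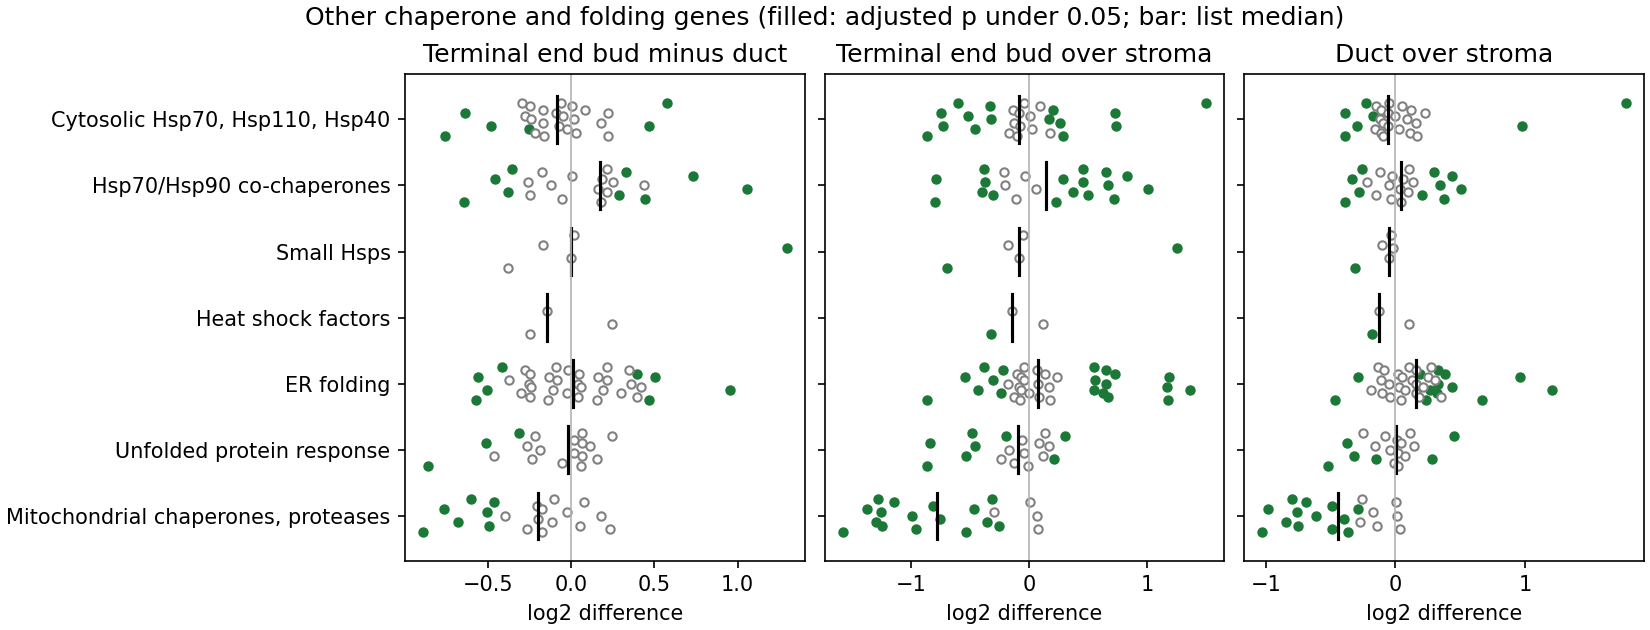
Log2 differences (horizontal axis) of 130 probes from 7 lists of chaperone and folding genes, without Hspa1a, in terminal end bud minus duct, terminal end bud over stroma and duct over stroma. Each point is a probe, filled where the adjusted p is under 0.05, and black bars are list medians. The mitochondrial list has medians of -0.78 and -0.44 against stroma in terminal end buds and ducts. The list labelled cytosolic also holds some genes of the endoplasmic reticulum.

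The genes most like a chaperone in pattern were found by Pearson's r over the 12 arrays, as a description that the difference between the groups enters. Nearest to Hspa8 were Kcnk5 (r = 0.967), Ttc39c (0.953), Magef1 (0.950) and Pan3 (0.948). Nearest to Hspa5 were Tra2b (0.889), Pum3 (0.874), Epb41l3 (0.865) and Cstf3 (0.861). Nearest to Hspd1 were Ghitm (0.94), Dmd (0.933), Ankrd24 (0.931) and Sppl2a (0.929). Ghitm, a protein of the mitochondrial inner membrane, averaged -1.998 ± 0.51 in terminal end buds and -0.82 ± 0.24 in ducts over stroma (SD, n = 6 each).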

How the data were processed

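Two-colour arrays compared microdissected terminal end buds (6 arrays) or ducts (6 arrays) with distal stroma. The authors deposited normalized ratios for 17589 probes, taken here as log2 of Cy5 over Cy3, with the direction from the dyes in the labels. How the arrays were scanned, background-corrected and normalized is not stated in the labels. Array medians lay between 0.010 and 0.023, and values were used as deposited. A probe needed values on at least 4 arrays per group, which left out none. Gene names came from the platform annotation, in which 14136 probes had 1 symbol, 13 several and 3440 none.

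One limma 3.58.1 fit (R 4.3.3) of 2 group means over 12 arrays gave the 3 comparisons, with lmFit and eBayes and two-sided tests. Replicate numbers follow record order and pair nothing. The members and lists were chosen with earlier results of these data known. All members were named, with up to 4 genes per chaperone list with the largest change past the threshold between the structures, and the 4 nearest genes to Hspa8, Hspa5 and Hspd1. On simulated data with 17589 probes, terminal end bud against duct recovered 44.7% of differences of 0.5, 85.9% of 1 and 100% of 2, with 6 false calls. The simulation used normal noise and raised 76, 64 and 60 probes by these sizes. In the real data 3295 probes passed in both directions, so these rates need not hold for them. The alternatives were centring, quantile normalization, a common spread, complete probes, another variance model, array weights, a slide term, groups fitted alone, a minimum change of 1 on the log2 scale, and each array left out. Fits within early and late slides and with neighbouring slides as a block were added after seeing the data. The number of arrays limits the precision.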

Additional observations from a re-analysis of the deposited data

Results flagged for a closer look

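Epithelium over stroma differed between terminal end buds and ducts in the limma fit for 5 of the 9 chaperone probes, by 1.89 for Hspa8, -0.95 for Dnaja1, -0.51 for Hsp90aa1, 0.58 for Pdia4 and -0.51 for Hspd1 on the log2 scale. Single arrays lay far from the other 5 of their group in 3 cases, by Dixon's ratio, which chance gives in about 1 of 20 groups. Duct replicate 5 was highest for Hsp90aa1, at 0.634, and duct replicate 2 was lowest for Dnajb1, at -0.209, and for Hspe1, at -0.255. Duct replicate 5 was also the lowest duct array for Hspa8.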

How the results depend on the processing

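Of 12 calls on chaperone probes, 9 kept direction and call under all alternatives other than the splits by slide number and the minimum change of 1 on the log2 scale, and the calls of Pdia4 and Hspd1 between the structures and of Dnajb1 in terminal end buds did not, as given above. Of 235 recomputed values for these 12 calls, the splits and the minimum change aside, 211 kept the call, 24 lost it and 0 reversed. Of the 5 chaperone calls between the structures, 3 remained in number under quantile normalization and 3 at a common spread. Calls over all probes went from 3295 to 2238 and 2568 in these settings, and the cause was not tested. On slides up to 193 alone there were 2 chaperone calls, and on slides from 196 on 3, with fewer arrays. Calls over all probes were not counted in these splits. Requiring a change of at least 1 on the log2 scale left 1 member and 419 probes between the structures, 2 members and 1269 probes in terminal end buds, and 0 members and 424 probes in ducts against stroma, where limma without that minimum called 1 member. With single arrays left out, the member calls numbered 4 to 5 between the structures, 5 to 6 in terminal end buds and 1 each time in ducts. Calls over all probes then numbered 2779 to 3356, 6890 to 7797 and 4039 to 5076, beside 3295, 7674 and 4952 with all arrays. Ratios close to 0 changed sign without passing. In ducts against stroma, Hspa8 was at -0.013 with centring, -0.088 with quantile normalization, -0.053 with array weights and -0.26 on slides from 196 on, and between -0.11 and 0.25 without single arrays. Dnaja1 in ducts was at -0.015, -0.0032 and -0.0020 in the first 3 of these, at -0.087 on slides up to 193, and between -0.024 and 0.034 without single arrays. Dnajb1 in ducts was at -0.018 with centring, -0.0021 with quantile normalization, -0.098 on slides up to 193, and between -0.012 and 0.045 without single arrays. Hspe1 in ducts was at 0.0015 on slides from 196 on, and at 0.014 between the structures on slides up to 193. In terminal end buds, Hspa4 was at 0.086 and Hspa5 at 0.091 on slides from 196 on, and Hspa5 between -0.099 and 0.028 without single arrays. The labels give no replicate numbers and name no pairs. Neighbouring slide numbers form 6 pairs of a terminal end bud and a duct array, and with these pairs as a block, a fit added once the values had been seen, the 5 chaperone calls between the structures numbered 5 again, with adjusted p = 0.00714 for Hspa8, 0.00038 for Dnaja1, 0.0209 for Hsp90aa1, 0.0134 for Pdia4 and 0.00402 for Hspd1. Deviations from the group means correlated over all probes between -0.0618 and 0.28 within pairs, over 0.1 in 1 of 6. The median was 0.0531 within pairs and -0.0288 for other terminal end bud and duct arrays. Of 6 terminal end bud arrays, 3 correlated best with their neighbour.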
